A study of Mus musculus with 12 samples.

Results

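Foxa1, Gata3, Elf3, Ehf, Spdef, Klf4, Klf5, Grhl2, Sox9 and Trp63 encode transcription factors that set or maintain epithelial lineages. They were taken by name, and all 10 were measured among the 19935 genes with 1 symbol on the array. Their transcripts were compared between the anterior prostate of 12-week-old APT121 and wild type male mice. APT121 mice carry T121, a fragment of a viral large T antigen that inactivates the pRb family of proteins, driven in prostate epithelium by the probasin promoter. Per the labels their samples are prostatic intraepithelial neoplasia (PIN) lesions and the wild type samples are normal. Both groups had a mixed background of C57BL/6J and DBA/2 (F3), and both ate the semi-purified AIN93G diet from 3 weeks of age. RNA of 2 mice was combined for each Affymetrix Mouse Gene 1.0 ST array, giving 4 APT121 arrays from 8 mice and 8 wild type arrays from 16 mice. A replicate is therefore a pool, and the tissue was a whole lobe that holds stroma, vessels and immune cells beside the epithelium.

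FOXA1 and GATA3 are pioneer factors, which bind their sites in closed chromatin and open them for other regulators. ELF3, EHF and SPDEF are among the ETS family members of epithelia and act in luminal and secretory differentiation. KLF4 and KLF5 are zinc finger factors that bind similar GC-rich sites, and in several epithelia KLF4 goes with cell cycle exit and KLF5 with dividing cells. GRHL2 activates genes of cell junctions and opposes epithelial-mesenchymal transition (EMT). SOX9 acts in the budding epithelium of the developing prostate, and p63, the product of Trp63, marks basal cells and is required for them.

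Promoter windows from RefSeq (GRCm38.p6, from 250 bases before to 50 after a gene's start) were given for 5 of the 10 genes. Printed are those of Foxa1 (chr12:57546062-57546361, minus strand), Elf3 (chr1:135258423-135258722, minus strand), Gata3 (chr2:9878551-9878850, minus strand) and Spdef (chr17:27728902-27729201, minus strand), of which the first 2 rose in APT121 and the others fell. Each reads 5′ to 3′ on the gene's strand, and capitals mark matches to the words searched.
Foxa1: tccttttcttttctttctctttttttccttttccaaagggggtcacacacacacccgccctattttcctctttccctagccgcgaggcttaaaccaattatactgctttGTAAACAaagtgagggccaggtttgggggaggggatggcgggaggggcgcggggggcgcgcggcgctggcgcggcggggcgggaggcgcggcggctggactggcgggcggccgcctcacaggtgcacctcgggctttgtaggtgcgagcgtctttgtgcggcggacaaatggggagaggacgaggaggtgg
Elf3: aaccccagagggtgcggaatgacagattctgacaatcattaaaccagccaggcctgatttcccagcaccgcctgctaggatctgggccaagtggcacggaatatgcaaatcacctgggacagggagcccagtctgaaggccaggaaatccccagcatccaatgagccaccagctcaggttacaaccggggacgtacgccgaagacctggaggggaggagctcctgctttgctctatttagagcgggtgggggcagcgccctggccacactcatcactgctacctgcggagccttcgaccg
Gata3: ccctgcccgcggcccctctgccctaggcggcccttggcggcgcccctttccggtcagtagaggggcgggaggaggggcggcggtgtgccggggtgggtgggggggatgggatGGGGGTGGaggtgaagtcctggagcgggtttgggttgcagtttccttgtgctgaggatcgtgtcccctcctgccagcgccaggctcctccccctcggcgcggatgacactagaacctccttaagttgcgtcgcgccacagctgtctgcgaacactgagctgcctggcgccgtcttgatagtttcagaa
Spdef: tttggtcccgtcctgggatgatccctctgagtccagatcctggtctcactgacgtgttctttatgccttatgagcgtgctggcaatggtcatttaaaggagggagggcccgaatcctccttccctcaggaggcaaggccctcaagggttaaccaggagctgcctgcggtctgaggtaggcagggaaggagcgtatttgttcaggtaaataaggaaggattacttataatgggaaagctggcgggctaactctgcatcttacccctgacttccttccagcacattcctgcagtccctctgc
The words searched on both strands were TTTCCCGC, TTTCGCGC, TTTGCCGC and TTTGGCGC for E2F, the factor that pRb restrains, GGGNGTGG for KLF, CCGGAAGT for ETS, AACCNGTT for GRHL, TGTTTAC for FOXA, ACAANGG for SOX and AGATAA for GATA. The Foxa1 window held 1 FOXA word, which 3.65% of all 32851 windows of 300 bases hold. The Gata3 window held 1 KLF word, found in 17.6% of windows. The Elf3, Spdef and Klf4 windows held 0 of these words. E2F words, present in 2.26% of windows, were in 0 of the 5. A match is a run of letters and was not tied to binding in these samples.

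Of the 10 genes, 5 rose and 5 fell in APT121. Klf5, Sox9 and Elf3 rose 11.1-fold, 5.03-fold and 4.60-fold, and Grhl2 and Foxa1 rose 1.95-fold and 1.63-fold. Spdef fell 2.26-fold and Trp63 1.80-fold, while Ehf (1.45-fold), Gata3 and Klf4 (both 1.24-fold) fell by less. Changes were common on these arrays. Of all genes, 52.8% passed an adjusted p of 0.05 by limma, 22.8% higher and 30.0% lower. The APT121 and wild type values did not overlap for any of the 10 genes, as for 34.6% of all genes, with 17.7% above and 16.9% below. At least 1.5-fold changes were 7 of the 10 genes against 17.8% of all. The median absolute difference was 0.90 over the 10 genes and 0.23 over all genes (log2), and the median of all signed differences was -0.09. At least 2-fold rises were 3 of the 10 genes against 5.73% of all, and at least 2-fold falls 1 of the 10 against 1.95%. The 10 genes were chosen with earlier results of these data known, so these shares are a description and no test of the set. In whole tissue, fewer cells of a type and less RNA per cell cannot be told apart.

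**Figure D1:**
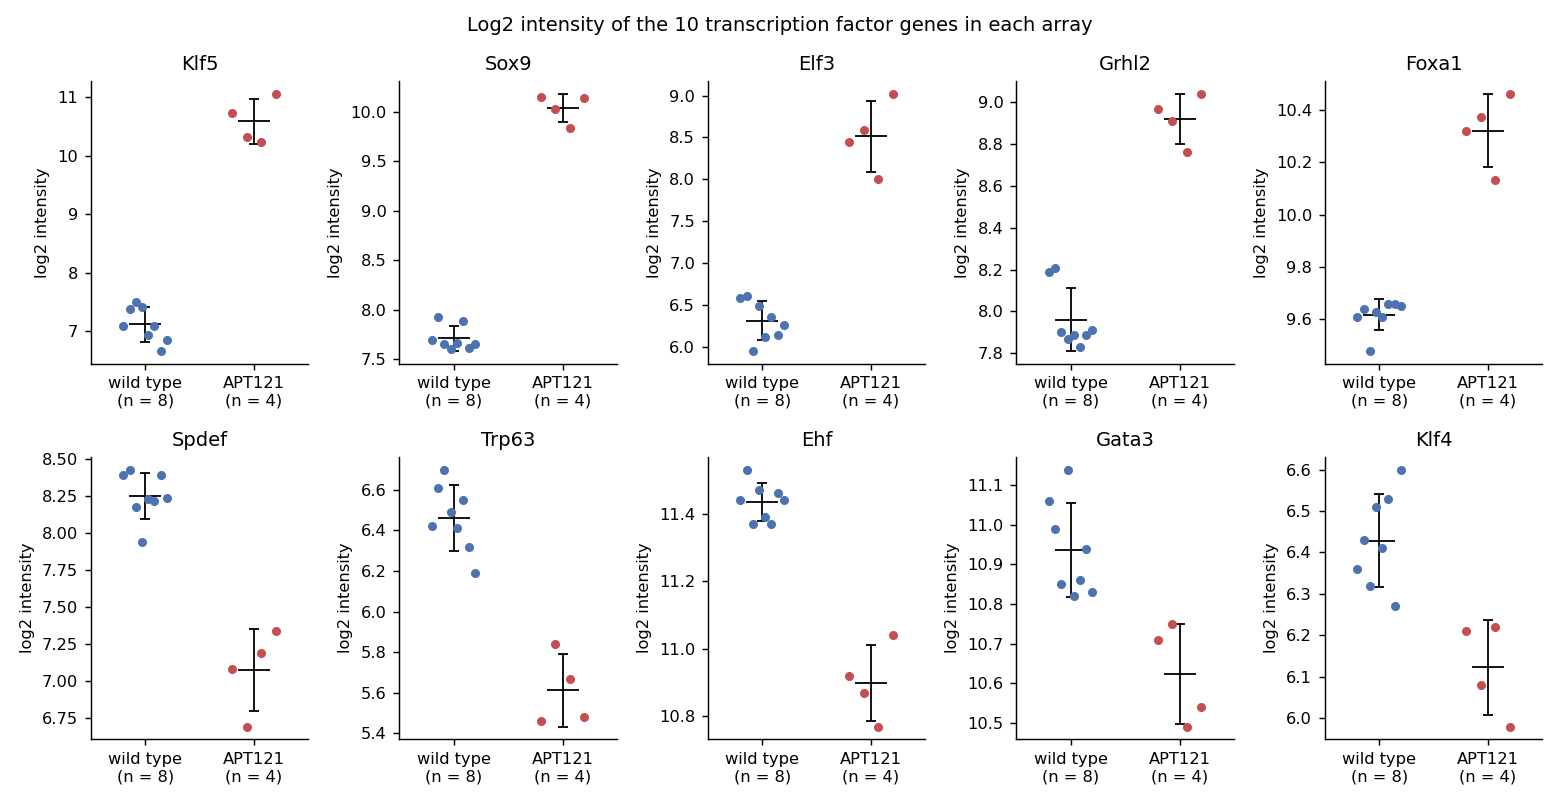
Log2 intensity (y axis, with its own range in each panel) of the 10 genes in 8 wild type and 4 APT121 arrays, with 1 point per array and the mean ± SD in black. The upper row holds the 5 genes that rose and the lower row the 5 that fell, and in no panel do the groups overlap.

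Below, values are log2 intensities, and differences are APT121 minus wild type ± SE from limma with its Benjamini-Hochberg adjusted p over all genes. Intensities of different probe sets are not on a common scale, so the genes were not ranked by level. Genotype separated the arrays on the main axis of variation (78.4% of the variance). The median array intensity lay between 32.1 and 33.7 before log2, seminal vesicle transcripts varied between arrays of both groups, and fat transcripts between wild type arrays.

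The KLF pair moved in opposite directions. Klf5 (transcript cluster 10416777) ran from 6.66 through a median of 7.09 to 7.49 in wild type, and was 10.74, 10.32, 10.23 and 11.06 in APT121 arrays 1 to 4. The lowest APT121 value was far above the highest wild type value. The difference was 3.48 ± 0.17 (adjusted p = 7.21e-11), and it ranked 74 among the rises of all 19935 genes. Klf4 (10513008) ran from 6.27 through 6.42 to 6.60 in wild type and was 6.21, 6.08, 6.22 and 5.98 in APT121. The groups lay next to each other without overlap, and the difference was -0.31 ± 0.08 (adjusted p = 0.00294). The within-array ratio of Klf5 to Klf4 gives the size of this split. On the log2 scale it rose from 0.68 ± 0.31 (SD, n = 8) to 4.46 ± 0.46 (SD, n = 4), a 13.8-fold change (3.78 ± 0.22, exact permutation p = 0.00404, two-sided, and 0.00404 adjusted over the 4 family ratios tested). This is the smallest p that 4 against 8 arrays allow. It was fixed in advance, since Klf5 lay above all wild type values and Klf4 below them in all 4 APT121 arrays.

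The ETS trio also split. Elf3 (10358027) ran from 5.95 through 6.31 to 6.60 in wild type and was 8.44, 8.59, 8.00 and 9.02 in APT121, a difference of 2.20 ± 0.16 (adjusted p = 8.89e-09). Its APT121 values spread over 1.03, the widest range among the 10 genes in that group. Ehf (10485445) held a narrow band in wild type, from 11.37 through 11.44 to 11.53. In APT121 it was 10.92, 10.87, 10.77 and 11.04, lower by a difference of -0.53 ± 0.06 (adjusted p = 2.63e-06). Spdef (10449377), a factor of secretory cells, fell most among the 10. It ran from 7.94 through 8.23 to 8.43 in wild type and was 7.08, 6.69, 7.19 and 7.34 in APT121 (-1.18 ± 0.11, adjusted p = 2.08e-07). All 3 ratios among the trio changed. In every APT121 array Elf3 lay above all wild type values, and Ehf and Spdef lay below theirs. The permutation p of Elf3 to Ehf and of Elf3 to Spdef was thus fixed in advance. Only the ratio of Ehf to Spdef was open. The ratio of Elf3 to Ehf rose 6.66-fold (2.74 ± 0.15, exact permutation p = 0.00404 and 0.00404 adjusted over the 4 ratios). The ratio of Elf3 to Spdef rose 10.4-fold (3.38 ± 0.21, exact permutation p = 0.00404, adjusted 0.00404). Ehf and Spdef both fell, but unequally, and the ratio of Ehf to Spdef rose 1.56-fold (0.64 ± 0.12, exact permutation p = 0.00404, adjusted 0.00404).

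**Figure D2:**
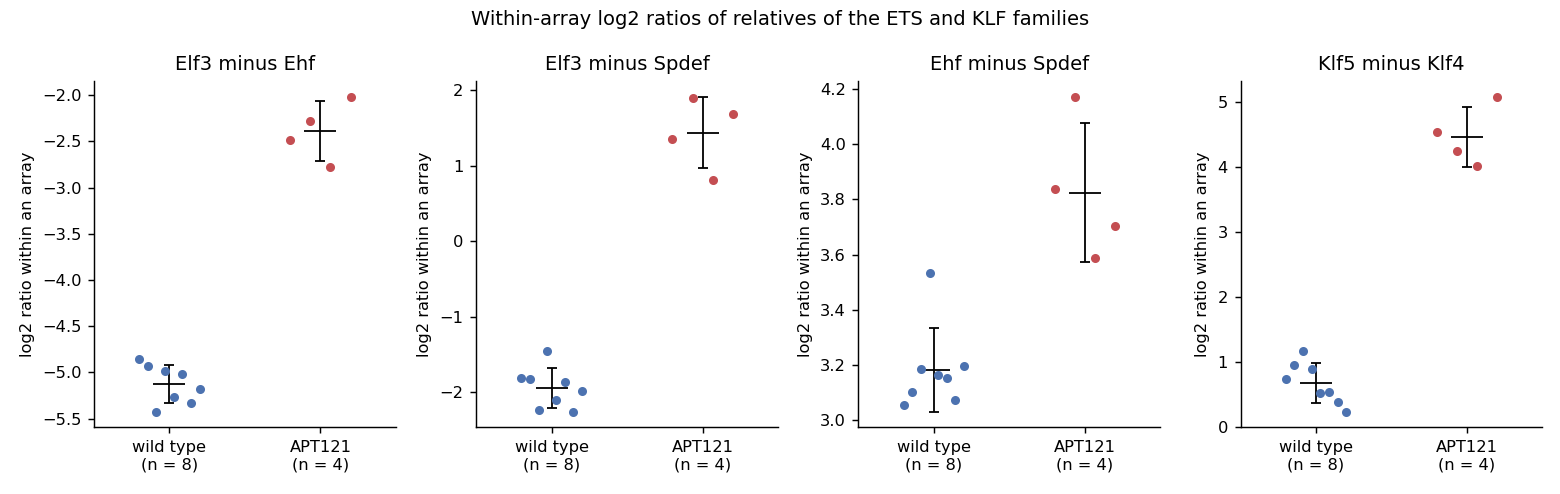
Within-array log2 ratios (y axis, each panel with its own range) of 4 pairs of relatives in 8 wild type and 4 APT121 arrays, with 1 point per array and the mean ± SD in black. In each panel every APT121 point lies above every wild type point. The step between groups is 3.78 for Klf5 to Klf4 and 0.64 for Ehf to Spdef, and the height itself compares different probe sets and has no meaning of its own.

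The pioneer factors differed in direction. Foxa1 (10400504) ran from 9.48 through 9.63 to 9.66 in wild type and was 10.32, 10.37, 10.13 and 10.46 in APT121. All 4 pools exceeded the wild type range (0.70 ± 0.07, adjusted p = 2.32e-07). Gata3 (10479981) ran from 10.82 through 10.90 to 11.14 in wild type and was 10.71, 10.75, 10.49 and 10.54 in APT121. Its groups were separated narrowly and the difference was -0.31 ± 0.08 (adjusted p = 0.00318). T cells and innate lymphocytes also express Gata3. Of 8 measured lymphocyte markers, 3 were higher, 1 lower and 4 did not pass (2 higher and 6 lower relative to the epithelial genes), and their summed log2 intensity was 7.27 to 7.63 in APT121 against 6.92 to 7.11 in wild type. All 8 markers lay below the median gene in both groups (5.44 in APT121 and 5.38 in wild type). The part of lymphocytes in the Gata3 result was not tested.

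Grhl2 (10423770) rose together with most of the junction genes it is known to bind. It ran from 7.83 through 7.90 to 8.21 in wild type and was 8.97, 8.91, 8.76 and 9.04 in APT121 (0.96 ± 0.09, adjusted p = 1.16e-07). Wild type arrays 1 and 2 were at 8.19 and 8.21 and the other 6 at 7.91 or less. Of 9 junction genes, 7 rose, 1 fell and 1 did not pass, with a median difference of 0.49. Of the 9, 4 also serve as epithelial reference genes, described further on. Relative to that reference, Rab25 and Esrp1 of the other 5 were lower, and Cldn4, St14 and Spint1 did not pass. The adherens junction cadherin Cdh1 rose by 1.12 ± 0.07 (adjusted p = 2.08e-09), the adhesion molecule Epcam by 0.96 ± 0.09 (adjusted p = 2.44e-07) and the membrane protease St14 by 0.76 ± 0.07. Rab25, a small GTPase of apical recycling, fell by 0.54 on the log2 scale. Of 8 EMT factors, which GRHL2 opposes, 0 rose and 7 fell (median -0.41), led by Twist2 (-0.74 ± 0.10), Snai2 (-0.62 ± 0.14) and Zeb1 (-0.58 ± 0.07). Mesenchymal cells carry these transcripts, and fibroblast and smooth muscle markers fell as well, for 7 of 7 and 8 of 9 genes. The part of those cells in the EMT result was not tested.

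Sox9 (10382328) had the smallest adjusted p of the 10 genes. It ran from 7.60 through 7.66 to 7.93 in wild type and was 10.15, 10.03, 9.84 and 10.14 in APT121. Both groups were tight, with SDs of 0.13 and 0.14, and the difference was 2.33 ± 0.08 (adjusted p = 2.16e-12). Its cartilage targets did not rise with it. Of 8 measured, 1 rose and 5 fell (3 fell without APT121 array 1 or without array 2, and 3 after quantile normalisation), with a median of -0.24. Col2a1, the main cartilage collagen, differed by -0.45 ± 0.10 and Col11a2 by -0.27 ± 0.07. Mia, a small secreted protein of cartilage and melanoma, rose by 0.72 ± 0.13, but did not pass relative to the epithelial genes (0.07, adjusted p = 0.588), where 0 of the 8 were higher and 7 lower. By group mean, 6 of the 8 lay below the median gene, which was at 5.38 in wild type and 5.44 in APT121, and no detection calls were used.

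Trp63 (10434815) fell with most basal genes. It ran from 6.19 through 6.46 to 6.70 in wild type and was 5.46, 5.84, 5.67 and 5.48 in APT121 (-0.85 ± 0.10, adjusted p = 2.01e-06). The cluster is 1 value for the gene, so isoforms with and without the transactivation domain were not separated. Of 16 measured basal markers and p63 targets, 4 rose, 11 fell and 1 did not pass, with a median of -0.41. Their summed log2 intensity, which the brightest genes set, overlapped (11.41 to 11.54 in APT121, 11.37 to 11.56 in wild type). Of 4 basal keratins 3 fell, Krt5 by a difference of -1.29 ± 0.17 (adjusted p = 9.73e-06) and its partner Krt14 by -0.56 ± 0.12 (adjusted p = 7.89e-04), with Krt15 the third, while Krt17 did not pass (0.12 ± 0.12, adjusted p = 0.413). The laminin chain Lama3 had the largest fall of the list, -1.85 ± 0.16. Genes of adhesion to the basement membrane did not all follow. The integrin Itgb4 rose by 1.43 ± 0.10 and the integrin activator Fermt1 by 2.09 ± 0.11.

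Markers of epithelium as a whole were also higher in APT121, so the 10 genes were set against them. The 6 reference genes Epcam, Cdh1, Krt8, Krt18, Cldn3 and Cldn7 rose by 0.65 on average, although not evenly. Krt8 rose by 1.00 ± 0.08 while its partner Krt18 differed by -0.04 ± 0.06 (adjusted p = 0.589). With each array centred on their mean, every difference drops by 0.65 and the median of all genes moves to -0.75, so that 6.88% of genes were called higher and 85.2% lower, 92.0% in all. On this scale Klf5 rose by 2.82 ± 0.17, Sox9 by 1.68 ± 0.08, Elf3 by 1.55 ± 0.15 and Grhl2 by 0.31 ± 0.08 (adjusted p = 0.0025). Foxa1 did not pass (0.05 ± 0.06, adjusted p = 0.444, 95% interval -0.08 to 0.19). Spdef fell by 1.83, Trp63 by 1.5, Ehf by 1.19, Gata3 by 0.97 and Klf4 by 0.96. Since the scale moves every gene down, the 5 falls could only stay falls, and 4 of the 5 rises kept their call.

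**Figure D3:**
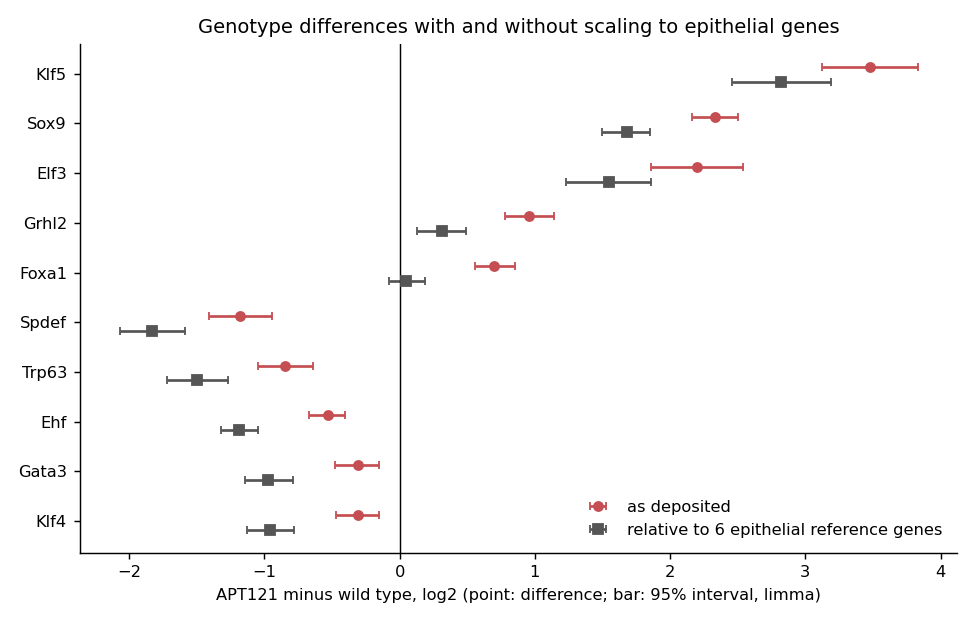
APT121 minus wild type difference on the log2 scale (x axis) of each of the 10 genes, with 95% intervals from limma, as deposited (circles) and relative to the 6 epithelial reference genes (squares). The squares lie 0.65 to the left of the circles. The interval of Foxa1 then spans 0, and those of the other 9 genes do not.

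The relatives of the 10 genes, 34 measured genes of the same families, had no common direction: 13 rose, 11 fell and the test left 10 uncalled (median -0.15). Relative to the epithelial genes 4 were higher and 24 lower. In the ETS family 4 of 11 relatives rose and 5 fell, the same counts after median centring or quantile normalisation, and 2 and 7 relative to the epithelial genes. Elf4, an ETS factor of lymphoid and epithelial cells, rose most (2.76 ± 0.11, adjusted p = 5.55e-12), though by 1.27 (adjusted p = 2.36e-09) with the mean of its clusters in place of the brightest. Elf5, a factor of secretory mammary epithelium, fell most (-1.57 ± 0.32, adjusted p = 6.90e-04). Elf5 varied among APT121 pools (SD 0.96), and its groups overlapped. In the KLF family 5 of 7 relatives rose and 0 fell, with 4 and 1 after median centring, 4 and 2 after quantile normalisation, and 1 and 3 relative to the epithelial genes. Klf3 led them (1.83 ± 0.11). The SOX relatives were 3 higher and 4 lower of 7, with 2 and 4 after median centring, 3 and 3 after quantile normalisation and 1 and 5 relative to the epithelial genes.

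Among close relatives of Foxa1, Foxa2 (-0.19 ± 0.09, adjusted p = 0.103) and Foxa3 (-0.13 ± 0.11, adjusted p = 0.327) did not pass, and Foxa2 did after median centring (adjusted p = 0.0434). Relative to the epithelial genes both were lower (-0.84 and -0.78), as were Gata2 (-0.84) and Gata6 (-0.93). Gata2 differed by -0.19 ± 0.09 (adjusted p = 0.0904) and passed after median centring (-0.24, adjusted p = 0.0297), while Gata6 fell (-0.28 ± 0.08, adjusted p = 0.0103) and did not pass after quantile normalisation (adjusted p = 0.0676). Grhl1 rose by 0.22 ± 0.08 (adjusted p = 0.0310), but not after median centring (adjusted p = 0.0841) or quantile normalisation (adjusted p = 0.309), nor without wild type array 3 (adjusted p = 0.0505) or APT121 array 1, 2 or 4 (adjusted p = 0.0608, 0.102 and 0.0947). Relative to the epithelial genes it was lower (-0.43). Grhl3 differed by -0.09 ± 0.09 (adjusted p = 0.394), and by -0.74 relative to the epithelial genes. Trp73, the p53 family member p73, was also lower (-0.49 ± 0.08, adjusted p = 1.05e-04). Its means, 4.28 in APT121 and 4.76 in wild type, lay below the median gene in both groups. Those of Foxa2, Foxa3, Gata6 and Grhl3 did too.

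**Figure D4:**
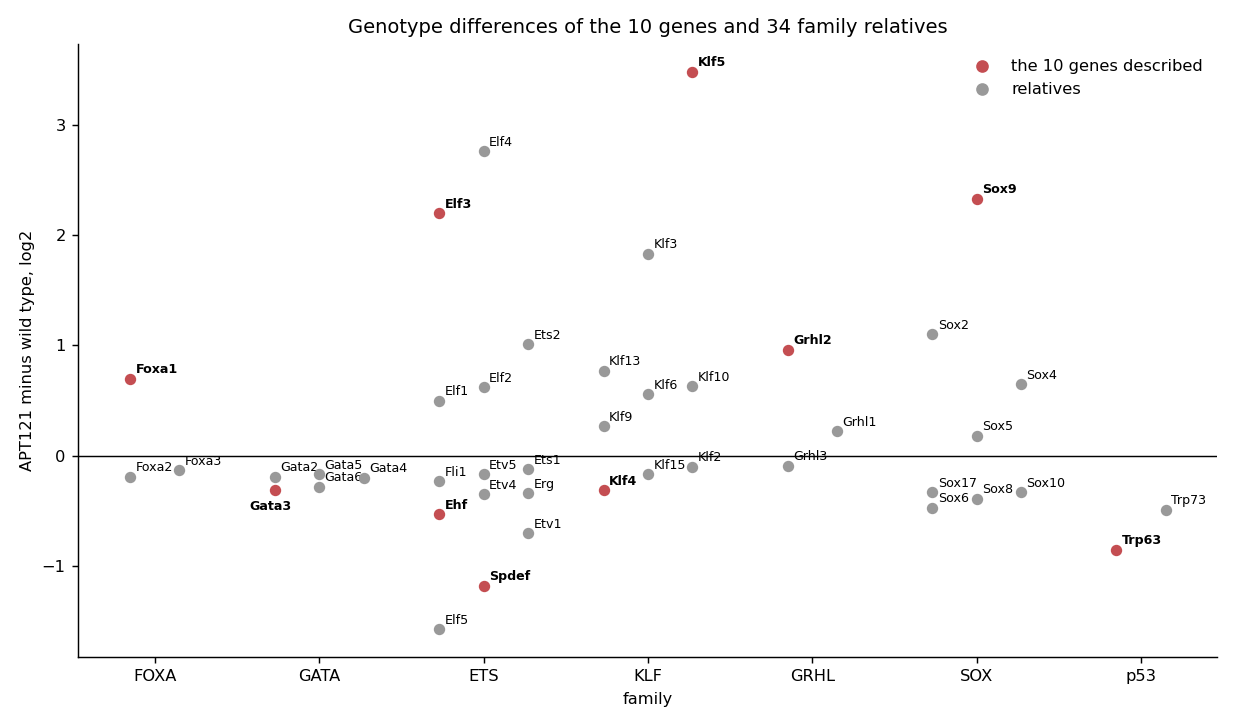
APT121 minus wild type difference on the log2 scale (y axis) of the 10 genes (red, bold) and their 34 measured relatives (grey), by family (x axis, with sideways spacing for legibility only). Klf5, Elf4, Sox9 and Elf3 are the 4 points above 2 (Elf4 is at 1.27 with the mean of its clusters), and Spdef and Elf5 the 2 points below -1.

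Other regulators of prostate and epithelial identity were mixed, with 5 of 12 measured genes higher and 4 lower (2 lower without APT121 array 1, and 0 higher and 9 lower relative to the epithelial genes). Hoxb13, the homeobox factor of prostate, fell by a difference of -0.57 ± 0.07 (adjusted p = 4.60e-06) and Tfap2c by one of -0.67 ± 0.09. Creb3l4, a membrane-bound factor of secretory cells, rose by 0.53 ± 0.14, and relative to the epithelial genes it differed by -0.12 (adjusted p = 0.405). Targets named for SPDEF and FOXA factors in mucus-secreting cells fell for 6 of 10 genes and rose for 0, with 3 falling after quantile normalisation and 10 relative to the epithelial genes. Agr2, a disulphide isomerase relative needed for mucin folding, fell from 11.06 ± 0.11 to 7.72 ± 0.43 (-3.33 ± 0.13, adjusted p = 9.65e-12), and Creb3l1 by a difference of -1.22 ± 0.11. The other 8 genes of that list lay below the median gene in both groups. Of 3 measured targets of KLF4 and KLF5, the survivin gene Birc5 rose (1.45 ± 0.16), and cyclin D1 (Ccnd1, -1.26 ± 0.10) and Pdgfa (-0.55 ± 0.06) fell. Probasin (Pbsn), whose promoter drives the transgene, fell by a difference of -3.27 ± 0.17, and all 8 cell division genes rose, Mki67 by 4.58 ± 0.13.

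Marker transcripts of cell types were set beside the 10 genes. Among 10 luminal markers 7 rose and 2 fell. As 6 of them are the epithelial reference genes, the list has no separate count on that scale. Of the other 4, Krt7 (2.51 ± 0.23) and Krt19 (1.31 ± 0.08) were higher and Cd24a and Prom1 lower on both scales. The summed log2 intensity of all 10 luminal markers was 14.35 to 14.39 in APT121 and 13.77 to 13.99 in wild type. Urothelium also expresses Grhl2, Klf5, Elf3 and Gata3. Of its 6 markers 3 rose and 3 did not pass, and relative to the epithelial genes 1 was higher and 4 lower. Upk1a rose by 2.42 ± 0.29 and Upk2 by 0.87 ± 0.15, whereas Upk3a, Upk3b and Krt20 stayed below the median gene in both groups. Upk1b rose by 0.43 ± 0.08, and it was lower relative to the epithelial genes (-0.22, adjusted p = 0.0282). Summed smooth muscle markers were at 12.76 to 13.16 in APT121 and 13.45 to 13.66 in wild type, and 6 of 8 endothelial markers fell. Of 8 myeloid markers 7 rose, and 1 was higher and 3 lower relative to the epithelial genes. The count that rose was 4 after median centring, with the replicate block, against wild type arrays 1 to 4 alone, without wild type arrays 5, 6 and 7, and without wild type array 4 or 7 or APT121 array 1 or 2. Adipose markers fell for 6 of 6 genes. Of 6 seminal vesicle transcripts 2 rose and 4 did not pass. Svs2 and Svs5 were higher in APT121 (6.17 ± 1.26 and 5.10 ± 1.14), and Svs4 differed by 1.94 ± 0.92 without passing (adjusted p = 0.0886). Svs1, Svs3a and Svs6 differed by -0.53, -0.48 and -0.46 without passing. Their wild type medians were 3.94, 2.62 and 3.08, with highest values of 6.96, 6.45 and 5.86. Relative to the epithelial genes Svs1 and Svs6 were lower. In wild type, Svs2 and Svs5 reached 12.93 and 12.15 in array 6. Without wild type arrays 5, 6 and 7, which stand apart by fat or seminal vesicle transcripts, all 10 genes kept their calls. In APT121, Svs2 was 9.93 to 13.26 and Svs5 8.59 to 12.28. In wild type outside array 6 they were at 6.34 and 5.75 or less. Leaving out array 6 removes the wild type array nearest to APT121 in both. The kept calls therefore do not bear on seminal vesicle transcripts. Beyond these values the part of these cell types in the 10 results was not tested.

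**Figure D5:**
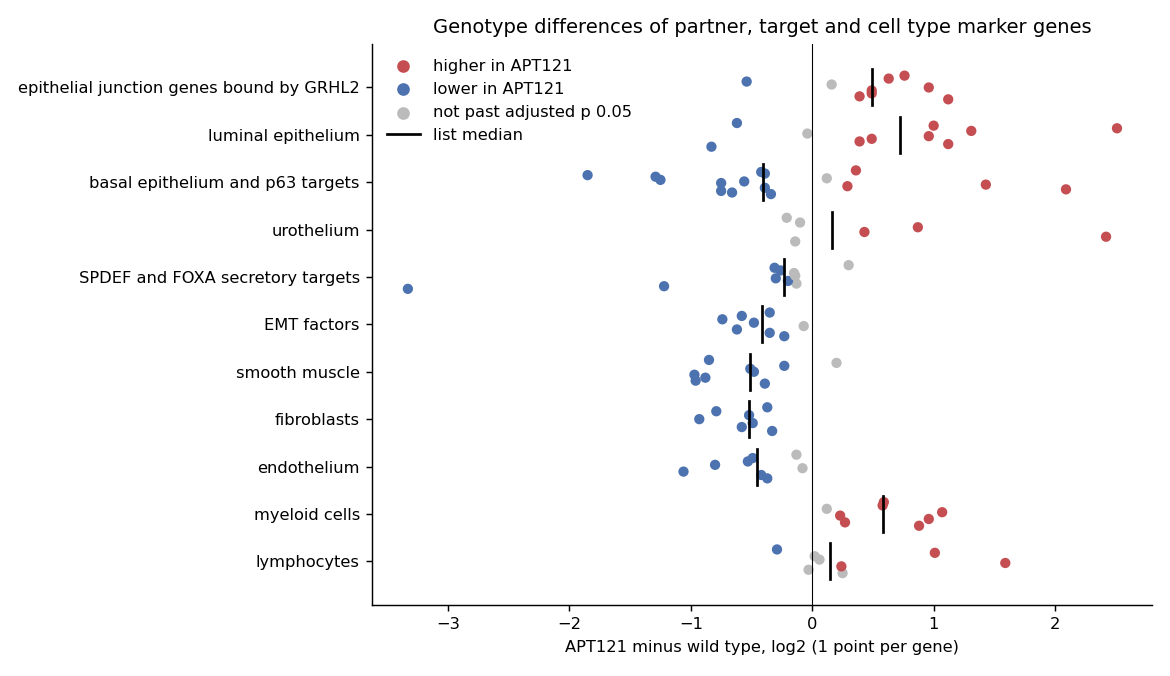
APT121 minus wild type difference on the log2 scale (x axis) of each measured gene in 11 lists (y axis), coloured by its limma call at an adjusted p of 0.05, with the list median as a black line. Medians are above 0 for junction, luminal, urothelium, myeloid and lymphocyte genes and below 0 for the other 6 lists.

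Among the 4 APT121 pools, array 3 was the lowest for all 5 genes that rose, and array 4 the highest for 4 of those 5. Klf5 was 11.06 in array 4 and 10.23 in array 3, and Elf3 was 9.02 and 8.00. Among the 5 genes that fell, array 3 was the lowest for 2. Array 3 also had the highest summed myeloid and lymphocyte intensities of all 12 arrays, and its part in this order was not tested. In wild type, Klf5 had the widest range (0.84), with a mean of 7.34 in arrays 1 to 4 and 6.88 in arrays 5 to 8. Those sets met at 7.09, and for the other 9 genes their means differed by 0.19 or less. Against arrays 1 to 4 alone the Klf5 difference was 3.24 and against arrays 5 to 8 alone 3.71.

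For the 4 genes with a difference of at least 1 on the log2 scale, the gene with the most similar profile was found among 18624 named genes, as the smallest root mean square distance between the 12 values after each gene's mean was subtracted. Klf5 was nearest to Sectm1b, a secreted and transmembrane protein (distance 0.21, difference 3.77 ± 0.17). Elf3 was nearest to the deubiquitinase gene Otud1 (0.18, difference 2.08 ± 0.13). Sox9 was nearest to the phosphatase gene Ctdspl (0.14, difference 2.22 ± 0.11). Spdef was nearest to the phosphodiesterase gene Pde8a (0.13, difference -1.23 ± 0.10). The 12 arrays form 2 groups, so a gene with a group difference of like size lies near by construction.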

How the data were processed

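Anterior prostate RNA was hybridised to 12 arrays (4 APT121, 8 wild type, each a pool of 2 mice). The deposited intensities, on a linear scale, were made by the authors with RMA, per the submitters' processing notes. Software, version and genome build: not given in the sources used here. Log2 was taken here. Of 28815 transcript clusters, 21780 had 1 symbol in the platform annotation, 1605 several and 5430 none, and only the first were tested. For 998 genes with more than 1 cluster, the one with the highest mean was used, while each of the 10 members had 1. No low-value filter was applied and no value was missing. The number of arrays limits the precision, and each p-value reflects variation among pools.

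The genotype difference was fitted in R 4.3.3 by limma 3.58.1 (lmFit, eBayes, two-sided, Benjamini-Hochberg over 19935 genes, threshold 0.05). The series design text names SAM, which was not run. limma was tested on simulated data. Ratios of relatives were tested by exact permutation (scipy 1.17.1). Same-numbered arrays did not deviate together (correlation -0.03 to 0.07 over genes), and no block was used. Members and 20 gene lists were chosen with earlier results of these data known. Named were the 10 members, up to 3 called genes of each list with the largest absolute difference, a further 20 listed genes where they bear on a result, and nearest profiles. Others were named after their values were seen. Alternatives covered scaling, filters, moderation, weights, clusters, the replicate block, subsets of wild type arrays, each array left out and a 1.5-fold minimum.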

Additional observations from a re-analysis of the deposited data

Results flagged for a closer look

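In 10 of 170 groups of arrays examined, 1 value lay apart from the rest by Dixon's criterion at 95%, and chance alone marks about 1 in 20 groups. Foxa1 was at 9.48 in wild type array 3, where the other 7 lay between 9.61 and 9.66. In the same array St14 was low at 9.40 (the next at 9.55) and Fcer1g at 5.01 (the next at 5.85). The log2 ratio of Ehf to Spdef was high at 3.54 in wild type array 4, against 3.20 or less in the others, and Pde8a was low there at 5.77 (the next at 6.05). In APT121 array 4, Twist2 was low at 5.31 and Pdgfra at 6.26, where the next values were 5.59 and 6.73. Ctdspl was low at 8.26 in APT121 array 3 (the next at 8.61). The seminal vesicle transcripts Svs2 and Svs5 were at 12.93 and 12.15 in wild type array 6, with the next wild type values at 6.34 and 5.75.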

How the results depend on the processing

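The 5 rises and 5 falls kept their direction under every alternative run. Against the epithelial reference the falls could only stay falls, and Foxa1 stood at 0.05 with an interval that spans 0. Their counts stayed at 5 and 5 with each array left out in turn, with the replicate block and with array weights. The same held with the trend and robust options, median centring, quantile normalisation and either low-value filter. It also held against wild type arrays 1 to 4 or 5 to 8 alone. The exact permutation p was 0.00404 for each gene, which was fixed in advance since the groups did not overlap, and it is no further check. With the replicate block Klf5 differed by 3.24 and Klf4 by -0.28 (adjusted p = 0.0383), and no member's call changed. Numbers 5 to 8 exist only in wild type, so this fit rests on wild type arrays 1 to 4. Its differences are those against these arrays alone, and it is no separate check of them. Same-numbered arrays correlated best with their own number in 2 of 4 pairs. With a 1.5-fold minimum 2 genes were lower (Spdef and Trp63), since Ehf, Gata3 and Klf4 fell by less. Over the 174 other list genes, 57 were higher and 80 lower. These were 26 and 128 against the epithelial reference. Genes that turned sign there included Creb3l4 (-0.12), Upk1b (-0.22), Grhl1 (-0.43), Klf9 (-0.39) and Xbp1 (-0.2), among others. Without the lowest 50% of genes, a smaller set to test, 52 list genes were lower. With 1 array left out, 51 to 57 were higher and 68 to 80 lower. Neuroendocrine markers, 3 of 4 lower, fell to 0 calls after quantile normalisation, with the replicate block, against wild type arrays 1 to 4 alone, without wild type arrays 5, 6 and 7 and without APT121 array 2, and to 1 without APT121 array 3 or 4 or wild type array 6 or 7. The cause was not tested. With 1 array left out, counts of 0 in a direction became 1 for secretory targets (without wild type array 3 or APT121 array 4), smooth muscle (without wild type array 3 or APT121 array 3) and urothelium (without APT121 array 3).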
